A study of Homo sapiens with 3 samples.

Results

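Tetraspanins are small membrane proteins that cross the membrane several times and assemble with integrins, membrane proteases and each other into patches called tetraspanin-enriched microdomains. CD151 is the family member best known for holding laminin-binding integrins at the basal side of epithelial cells, where they attach the cell to the basement membrane. BRG1, encoded by SMARCA4, is an ATPase that powers the SWI/SNF complex, which moves and evicts nucleosomes. The 33 tetraspanin genes examined here were the TSPAN genes, the CD-named tetraspanins, the uroplakins UPK1A and UPK1B and the photoreceptor genes PRPH2 and ROM1. All 33 matched the table of 19974 protein-coding genes on chromosomes 1 to 22 and X. A BRG1 peak was assigned to a gene when its midpoint lay in the gene body, or within 100 kb of it with that gene as the nearest protein-coding gene. Assignment is by position only and does not show that BRG1 acts on that gene.

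BRG1 was mapped by chromatin immunoprecipitation and sequencing in 12Z, a human epithelial line established from endometriosis. The cells were wild-type and the labels name no treatment. There were 2 BRG1 libraries, replicates 1 and 2, and 1 input library without immunoprecipitation, for which no list was analysed here. Separate cultures are not named in the labels, and the replicates may be technical. Replicate 1 had 17399 peaks, replicate 2 had 10157, and an overlap list had 6343, called shared peaks below.

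Each peak carries the authors' fold enrichment over background and the authors' −log10 q, where a larger value is a smaller false discovery rate. Read counts are not part of these lists, so depth is unknown and no counting error can be given. The shared list and the replicate lists come from the same libraries, and their values are therefore not independent. Among marker genes, shared peaks were assigned to 4 of 7 epithelial genes and 4 of 5 stromal fibroblast genes, and to 0 of 4 leukocyte and 0 of 3 endothelial genes, beside 9.67% of all genes. In replicate 1 alone, 1 of the 4 leukocyte genes (CD14) and all 3 endothelial genes (CDH5, KDR and PECAM1) had a peak, beside 20.2% of all genes. In the same list, 6 of the 7 epithelial and all 5 stromal fibroblast genes had a peak. Replicate 2 had peaks at 5 of 7 epithelial and 5 of 5 stromal fibroblast genes, beside 11.5% of all genes. It had none at the leukocyte or endothelial genes. CDH1 and EPCAM, which define epithelial cells, and KRT19 had peaks in a replicate list but no shared peak. Peaks do not measure expression, so the cell type itself could not be checked.

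Of the 25 tetraspanin genes with an entry in the RefSeq promoter table, only TSPAN8 had a shared peak over a transcript start. The sequence before that start is shown here because it lies wholly under the shared peak. The replicate 2 peak covered 42 bases of this sequence and reached neither the start nor the motifs marked in it. The stretch before a TSPAN4 start is shown beside it, since a peak of replicate 1 alone reached it. Both are the 250 bases before a RefSeq transcript start (GRCh38.p14), TSPAN8 at chr12:71158000-71158249 on the minus strand and TSPAN4 at chr11:843855-844104 on the plus strand. Capitals mark the motifs found.
TSPAN8: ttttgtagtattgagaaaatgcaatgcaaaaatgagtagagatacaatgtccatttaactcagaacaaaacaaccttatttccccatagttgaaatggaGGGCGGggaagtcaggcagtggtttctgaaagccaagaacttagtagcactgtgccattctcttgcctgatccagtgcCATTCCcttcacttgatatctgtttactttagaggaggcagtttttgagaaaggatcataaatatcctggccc
TSPAN4: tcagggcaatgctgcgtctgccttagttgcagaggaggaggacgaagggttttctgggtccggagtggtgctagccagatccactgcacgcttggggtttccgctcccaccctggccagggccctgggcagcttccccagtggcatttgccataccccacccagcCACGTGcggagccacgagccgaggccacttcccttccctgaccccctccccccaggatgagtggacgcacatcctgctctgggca

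The search used both strands and the letters TGANTCA (AP-1), GGAATG (TEAD), CCGGAAG (ETS), GGGCGG (GC box) and CACGTG (E box). The TSPAN8 stretch held 1 TEAD motif, read on the other strand, and 1 GC box, and the TSPAN4 stretch held 1 E box. No 2 of these matches overlapped. Among 22132 such stretches of protein-coding genes, 10.5% held the TEAD motif, 53.7% the GC box and 7.37% the E box. The TEAD motif was in 7 of the 45 stretches of 25 tetraspanin genes (15.6%) and the GC box in 27 (60%). The E box was in 3 (6.67%). AP-1 was in 3 (6.67%), beside 5.35% of all stretches, and ETS in 2 (4.44%), beside 10.7%. Genes differ in their number of stretches, and CD63 alone has 8. G and C made up 40.8% of the TSPAN8 stretch and 64.8% of the TSPAN4 stretch, beside a median of 62% over all stretches.

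Shared peaks were assigned to 9 of the 33 tetraspanin genes. These were CD151, CD9, TSPAN2, TSPAN5, TSPAN8, TSPAN9, TSPAN14, TSPAN15 and TSPAN18, with 15 shared peaks between them. Over all protein-coding genes, 9.67% had a shared peak, and the family's share was 27.3%. TSPAN2 had 3 shared peaks, a number reached by 1.4% of all genes. CD9, TSPAN5, TSPAN9 and TSPAN14 had 2 each (3.27% of all genes had 2 or more), and the other 4 had 1 each. A further 4 tetraspanin genes, CD82, UPK1B, TSPAN4 and TSPAN13, had peaks in replicate 1 only, and the remaining 20 had no peak in any list. Over all 19974 genes, 4033 had a replicate 1 peak and 2098 had peaks in both replicate lists. A peak in either replicate list was found for 4225 genes (21.2%). The family was selected on results of these same peak lists, the CD151 peak among them, so its counts, positions and folds are a description and carry no test.

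**Figure D1:**
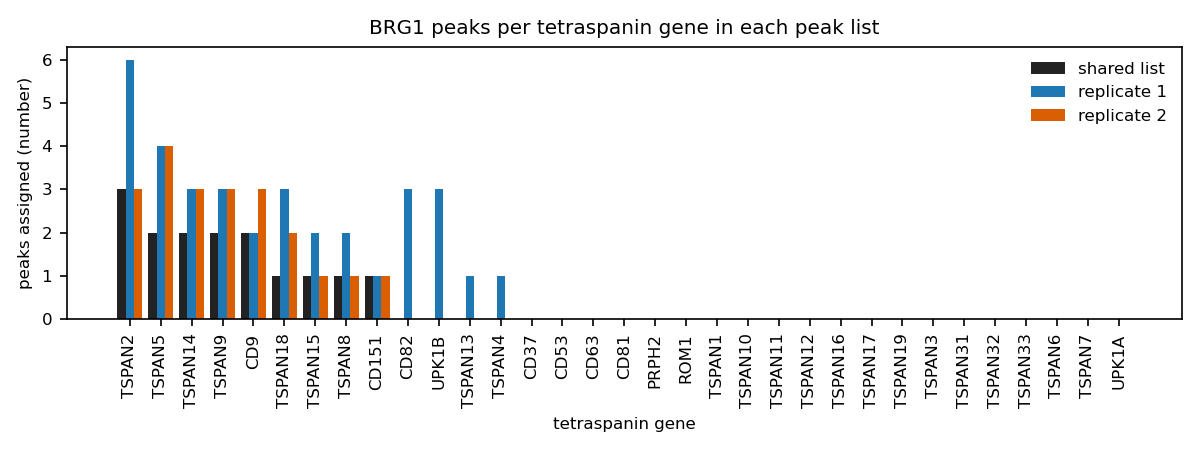
Bars give the number of BRG1 peaks assigned to each of the 33 tetraspanin genes (x axis) in the shared list (black), replicate 1 (blue) and replicate 2 (orange). The 9 genes at the left have peaks in all 3 lists, the next 4 in replicate 1 only, and the other 20 have none.

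Genes with long territories have more room for a peak. The domain of a gene, meaning all positions that the assignment rule would give to it, had a median of 58 kb in tetraspanins and 56 kb over all genes. It was 147 kb in the 9 members with a shared peak and 46 kb in the other members. Of the 17 members with a domain of 58 kb or more, 8 had a shared peak, beside 16.8% of all genes with domains of that length. CD151 was the exception among the members with a shared peak, with a domain of 7 kb. It was 1 of 4 members with a domain of 10 kb or less, and 0.87% of all genes that short had a shared peak. Per Mb of domain there were 4.70 shared peaks in tetraspanins and 1.55 over all genes.

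**Figure D2:**
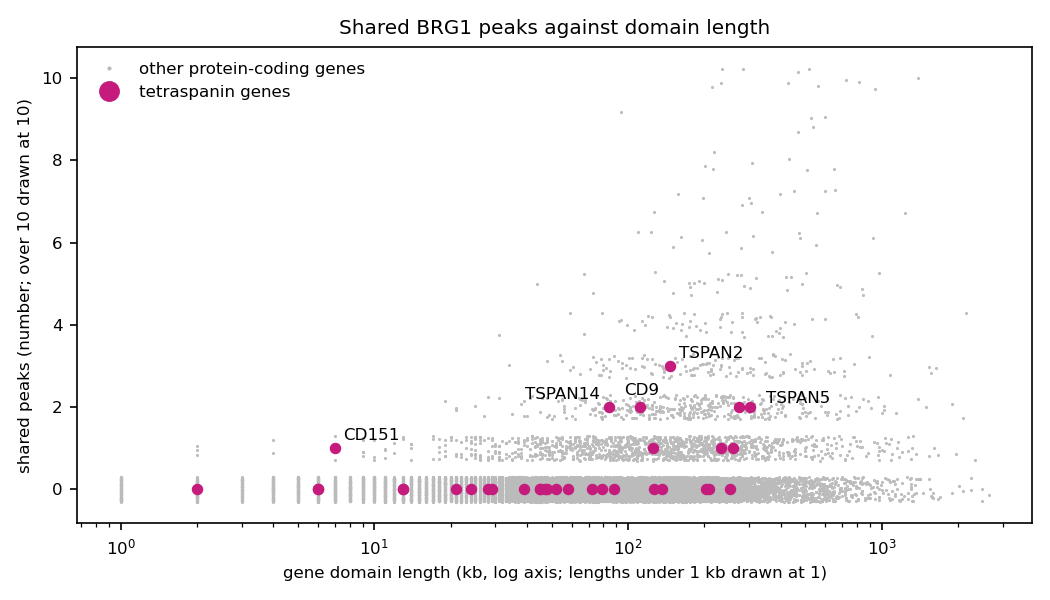
Each point is a gene, placed by its domain length (x axis, kb, log scale) and its number of shared peaks (y axis), with tetraspanins in magenta and other protein-coding genes in grey, spread vertically at random around whole numbers. CD151 stands at 1 peak in a 7 kb domain, while the other 8 tetraspanins with a shared peak have domains of 84 to 302 kb.

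CD151 had a single peak in every list, and the 3 peaks lay on top of each other inside the gene. The shared peak covered chr11:835033-835341, with a midpoint 2.24 kb from the nearer end of the gene body. The replicate 1 peak was 141 bp wide (835041 to 835181) and the replicate 2 peak 116 bp (835069 to 835184), and 113 bp were common to all 3 lists. The fold was 3.89 in the shared list, 4.61 in replicate 1 and 4.43 in replicate 2. The −log10 q was 7.80 in the shared list, 6.07 in replicate 1 and 4.61 in replicate 2. No other shared peak of the family had a larger −log10 q, although 3 had a larger fold. At 309 bp it was also narrow, beside a median of 762 bp for the family's shared peaks and 992 bp for the shared peaks of any gene.

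TSPAN4, which marks migrasomes left behind by moving cells, lies close to CD151 on chromosome 11. Its only peak, in replicate 1, covered chr11:843998-844540 (fold 3.17, −log10 q 1.79) and began 8.66 kb from the end of the CD151 peak. It covered 107 of the 250 bases shown for TSPAN4. It also covered all 250 bases before a further TSPAN4 start (chr11:844164-844413), a stretch not shown here that held 1 GC box. No peak of replicate 2 was assigned to TSPAN4. CRACR2B and POLR2L, the protein-coding neighbours of CD151, had no shared peak.

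CD9, which pairs with immunoglobulin-family partners at the surface and takes part in egg and sperm fusion, had both of its shared peaks before the gene. They lay 32.0 and 19.5 kb before the outermost transcript start. The farther one (chr12:6167395-6168444) had a fold of 3.84 in the shared list, 4.09 in replicate 1 and 3.80 in replicate 2. The nearer one (chr12:6180204-6180694) had a fold of 2.88, 3.24 and 3.29 in the same order, the lowest of the family's shared peaks. Inside CD9 only replicate 2 had a peak (chr12:6216175-6216288, fold 3.80). The neighbours VWF and PLEKHG6 had 2 shared peaks each. CD63, the late-endosome and exosome marker, and CD81, part of the B cell co-receptor, had no peak in any list.

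TspanC8 tetraspanins escort the protease ADAM10 from the endoplasmic reticulum to the surface. Of the 6 genes, TSPAN5, TSPAN14 and TSPAN15 had shared peaks (9.67% over all genes), while TSPAN10, TSPAN17 and TSPAN33 had no peak in any list. The TSPAN14 peak at chr10:80498777-80499047, 44.6 kb after the outermost start, had the largest fold of the family in the shared list. Its fold was 4.74 in the shared list, 5.45 in replicate 1 and 4.99 in replicate 2, with a −log10 q of 7.50, 5.91 and 4.15. The shared and replicate 1 peaks there had the same ends, at 271 bp, while the replicate 2 peak was 101 bp wide. The second TSPAN14 peak, chr10:80505585-80506901, was weaker (fold 3.05, −log10 q 2.24). The replicate peaks under it did not touch each other: they were separated by 340 bp.

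TSPAN15 had its shared peak 4.66 kb before the gene start, at chr10:69446500-69447113. The fold there was 4.10 in the shared list, 5.19 in replicate 1 and 3.94 in replicate 2, so replicate 1 had the larger fold. In TSPAN5 the order was the other way. Its peak 4.01 kb after the start (chr4:98654060-98655151) had a fold of 3.79 in the shared list, 3.94 in replicate 1 and 4.27 in replicate 2. Its other peak, 143 kb after the start (chr4:98515809-98516287), had 3.57, 3.36 and 4.40. The −log10 q there was 3.45, 1.39 and 3.06, and 1.39 was the joint lowest of the replicate 1 peaks at tetraspanins. Replicate 2 alone also had a peak 1.12 kb after the TSPAN5 start (fold 3.85, −log10 q 1.93). The neighbours of these genes (PRXL2A, SH2D4B, TACR2, NEUROG3, RAP1GDS1 and EIF4E) had no shared peak.

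TSPAN2, known from oligodendrocytes and myelin, had more peaks than any other tetraspanin in the shared and replicate 1 lists, where it had 3 and 6. Replicate 2 had 3, while TSPAN5 had 4 there. A shared peak inside the gene, 26.5 kb after the start (chr1:115062527-115063414), had a fold of 3.52, with 3.91 in replicate 1 and 4.09 in replicate 2. The other shared peaks lay 46.2 kb and 90.4 kb before the start. At 46.2 kb (chr1:115134884-115136583) the fold was 3.71, with 4.38 in replicate 1 and 3.998 in replicate 2. At 90.4 kb (chr1:115178950-115180759) it was 4.23, with 4.07 in replicate 1 and 5.60 in replicate 2, the highest replicate 2 value in the family. That peak was the widest of the family's shared peaks, at 1810 bp, and the closest to the 100 kb limit. No peak beyond the limit, up to 500 kb, had a tetraspanin as its nearest gene. The neighbouring gene TSHB had no shared peak.

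TSPAN9, known from platelets, and TSPAN18, which acts with a calcium channel in endothelial cells, are the longest gene bodies of the family at 209 and 206 kb, and their shared peaks lay deep inside. TSPAN9 had shared peaks at chr12:3117276-3118037 and chr12:3170234-3170819. The first had a fold of 3.40, with 3.53 in replicate 1 and 4.20 in replicate 2, and the second had 3.37, 3.45 and 3.60. Replicate 1 also had a TSPAN9 peak with a −log10 q of 3.40 (chr12:3122982-3123706, fold 4.06), larger than the 1.99 and 1.98 of its peaks under the shared ones. Replicate 2 had no peak there. In TSPAN18 the shared peak (chr11:44861967-44862669) had a fold of 3.81, with 4.61 in replicate 1 and 3.94 in replicate 2. The neighbours TEAD4, PRMT8, CD82 and PRDM11 had no shared peak.

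TSPAN8, a tetraspanin of gut epithelium and extracellular vesicles, had its shared peak over its outer transcript start (chr12:71157891-71158818), covering all 250 bases shown. The replicate 1 peak covered the same 250 bases. The replicate 2 peak covered the 42 bases farthest from the start, so it reached neither the start nor the marked motifs. The fold was 3.13 in the shared list, 3.51 in replicate 1 and 3.84 in replicate 2. The −log10 q was 2.16, 1.64 and 1.92, and 2.16 was the lowest of the family's shared peaks. Over all 15812 genes with a promoter window (250 bases before to 50 after a start), 0.759% had a shared peak over it. TSPAN8 was 1 of the 25 tetraspanins with such a window. PTPRR, on one side of TSPAN8, had 1 shared peak and LGR5, on the other, had none.

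**Figure D3:**
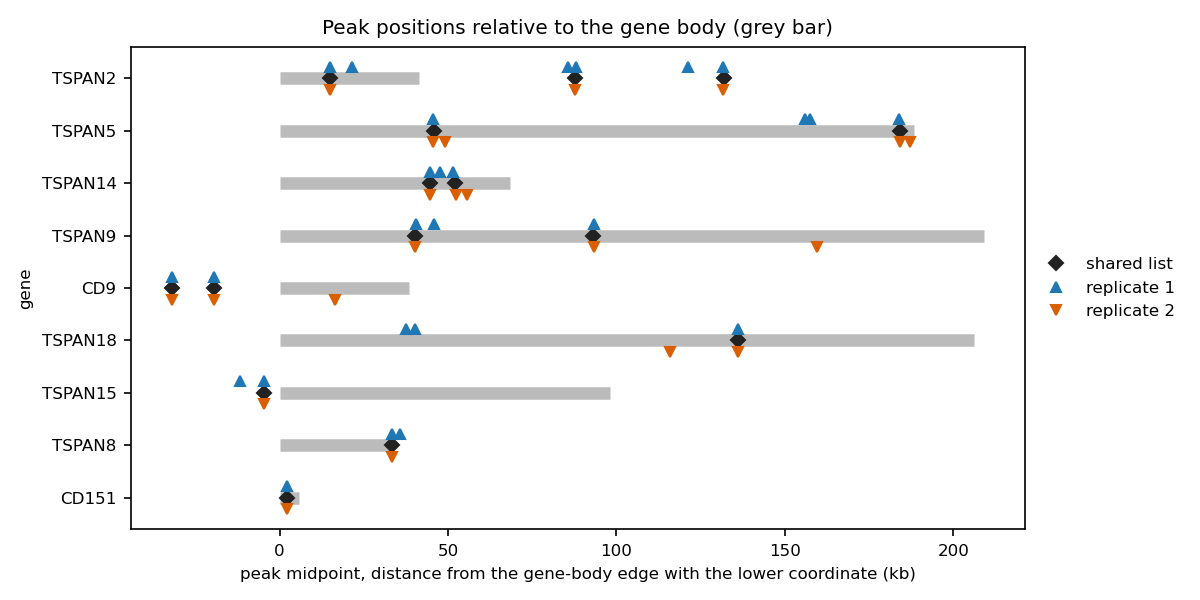
Peak midpoints of the 9 tetraspanin genes with a shared peak are placed by their distance in kb from the gene-body edge with the lower coordinate (x axis), with the gene body in grey. Shared peaks (black diamonds) lie inside 6 of the genes, and those of CD9, TSPAN15 and TSPAN8 and 2 of the 3 of TSPAN2 lie outside.

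Most shared peaks of the family lay away from gene ends, which is not particular to the family. Of the 15, 9 had their midpoint in a gene body (60%, beside 56.9% of the shared peaks assigned to any gene) and 6 lay outside. By gene, 6 members had a shared peak in the body (5.95% of all genes) and 4 had one outside it (4.85%). Of the 9 in a body, 8 had a midpoint more than 3 kb from both gene ends. The matching share over all genes was not counted. CD151 and TSPAN8 were the 2 members with a shared peak reaching within 3 kb of a gene end, which 2.24% of all genes had. Over all genes, 448 had such a peak near an end, while 1932 had an assigned shared peak.

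The fold of the 15 shared peaks ran from 2.88 to 4.74 with a median of 3.71, beside 3.47 for the shared peaks of any gene. Their median −log10 q was 3.98, beside 3.44 for the shared peaks of any gene and 3.71 over the whole shared list. Of the 15, 5 (33.3%) had a −log10 q of at least 5, beside 14.9% of the shared peaks assigned to any gene. There was 1 each in CD151, CD9, TSPAN2, TSPAN14 and TSPAN15. By gene, that is 5 of 33, beside 2.12% of all genes. In the single replicates that level was reached under 3 of the 15 peaks in replicate 1 (CD151, TSPAN14 and TSPAN15) and under 1 in replicate 2 (TSPAN2). It was reached in both replicates under none. The shared peak had a lower fold than both replicate peaks under it in 11 of 15 cases and a larger −log10 q than both in 14. Fold was higher in replicate 1 for 7 of the 15 peaks and in replicate 2 for 8. Over all peaks, the median fold was 3.53 in replicate 1, 3.71 in replicate 2 and 3.33 in the shared list. The order of folds between lists therefore does not show which library was more enriched at a gene.

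**Figure D4:**
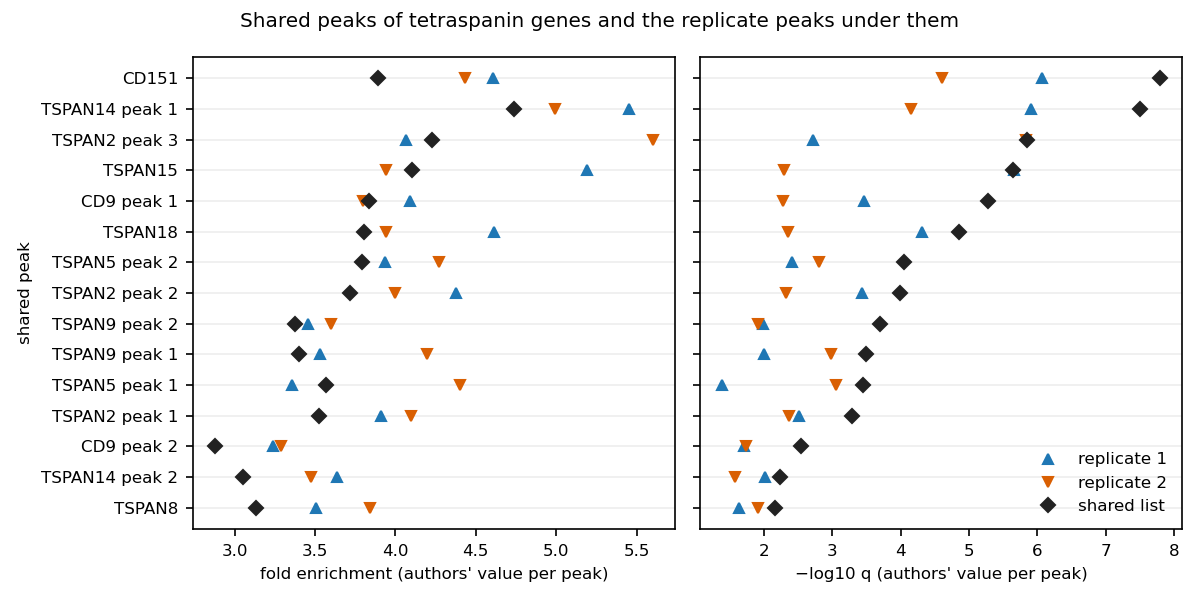
For each of the 15 shared peaks (y axis, ordered by −log10 q) the authors' fold enrichment (left) and −log10 q (right) are given in the shared list (black diamonds) and for the overlapping peaks of replicate 1 (blue) and replicate 2 (orange). CD151 and the first TSPAN14 peak stand highest in −log10 q, at 7.80 and 7.50 in the shared list, and TSPAN8 stands lowest at 2.16. Numbers after a gene name count its peaks from the lower coordinate.

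Replicate 1 had 34 peaks at 13 tetraspanin genes, and 20.2% of all genes had a replicate 1 peak. Replicate 2 had 21 peaks at 9 genes, beside 11.5% of all genes. The 9 genes of replicate 2 all had replicate 1 peaks, and 10.5% of all genes had both. Of the 34 replicate 1 peaks, 14 (41.2%) overlapped a replicate 2 peak, beside 33.0% of the replicate 1 peaks assigned to any gene. Of the 21 replicate 2 peaks, 14 (66.7%) overlapped a replicate 1 peak, beside 74.1%. At the 9 members with a shared peak, 11 replicate 1 peaks and 6 replicate 2 peaks lay outside the shared peaks. Their −log10 q ran from 1.42 to 3.40 in replicate 1 and from 1.44 to 2.05 in replicate 2.

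The 4 genes with peaks in replicate 1 only held 8 of them, with a fold of 3.17 to 3.87 and a −log10 q of 1.39 to 2.39. CD82, a suppressor of metastasis also called KAI1, had 3, all inside the gene. The one nearest a gene end (chr11:44565011-44565156) had a fold of 3.82 and a −log10 q of 2.39. UPK1B, a subunit of the plaques that cover the urothelium, also had 3 inside the gene, the strongest at chr3:119194356-119194651 (fold 3.87, −log10 q 2.29). TSPAN13 had 1, 13.5 kb before its start (chr7:16740125-16740372, fold 3.86, −log10 q 2.33). None of the 8 overlapped a peak of replicate 2.

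None of the 4 genes grouped as leukocyte tetraspanins (CD37, CD53, TSPAN32 and CD82) had a shared peak, beside 9.67% of all genes. The same held for the 4 genes UPK1A, UPK1B, PRPH2 and ROM1, the last 2 encoding photoreceptor disc proteins. Groups of 4 genes are too small to be told apart from that share. Of these genes, CD82 and UPK1B had replicate 1 peaks and the rest had no peak in any list. The other members without a peak in any list were TSPAN1, TSPAN3, TSPAN6, TSPAN7, TSPAN11, TSPAN12, TSPAN16, TSPAN19 and TSPAN31.

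Tetraspanins act through partners, and 6 of 24 partner genes had a shared peak (9.67% over all genes). Their domains were 67 kb (ITGA3), 166 (ITGB1), 174 (CD44), 182 (ADAM10), 213 (MET) and 369 (EGFR). The median over all genes was 56 kb, and 16.8% of genes with domains of 58 kb or more had a shared peak. Some partners without a shared peak also had long domains, such as ITGA6 (204 kb) and PDCD6IP (212 kb). The part played by length was not tested. ITGA3, the integrin chain that CD151 binds most tightly, had 4, with folds from 3.07 to 4.18. The strongest of these by −log10 q lay 4.76 kb outside the gene (chr17:50050961-50051744, −log10 q 7.06). ITGB1, the beta chain it pairs with, had 2, both outside the gene, the stronger at chr10:33004911-33006077 with a fold of 4.90. The laminin-binding chains ITGA6, ITGA7 and ITGB4, and ITGAV, had no peak in any list.

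Among the other partners, ADAM10, the protease that TspanC8 proteins carry, had 1 shared peak with a fold of 3.09 and a −log10 q of 2.05. CD44, the hyaluronan receptor, had 4 shared peaks, and the growth factor receptor genes EGFR and MET had 6 and 3. Over all genes, 1.4% had 3 or more, and the domains of these genes are long (174, 369 and 213 kb). HBEGF, ADAM17, SDCBP and PDCD6IP had peaks in replicate 1 only and EPCAM in replicate 2 only. In all, 13 partner genes had no peak in any list, among them IGSF8 and PTGFRN, which bind CD9 and CD81 directly. Over all genes, 21.2% had a peak in replicate 1 or replicate 2.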

How the data were processed

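Per the labels' protocols, 12Z cells were fixed with 1% formaldehyde for 10 min, then micrococcal nuclease and 30 seconds of sonication broke up the chromatin. The submitters' processing notes name Trim Galore and cutadapt (trimming tools), Bowtie2 (an aligner), Picard and SAMtools, bedtools and the peak caller MACS2, with build GRCh38.p12. No source used here gives versions, settings or filters. The authors deposited 3 lists of broad peaks, with a fold enrichment (a ratio) per peak. The authors also deposited the −log10 of each p-value and q-value. The overlap list has its own peak names and thus came from a further call. Pooling of reads is not stated for it. These values served to rank and filter peaks within a list and to describe peaks. Values of different lists are set side by side, but they were not put on a common scale.

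Peaks were assigned in Python 3.11.15 with numpy 2.4.6 and pandas 2.3.3, and plotted with matplotlib 3.10.9. A RefSeq gene table and promoter table of GRCh38.p14 gave genes, strands and sequences. Patch releases of one assembly keep the chromosome coordinates. Domains were counted in bins of 1 kb. Replicate peaks under a shared peak overlap it by at least 1 bp, and where several did, the one of largest −log10 q was taken. Peak coordinates are counted from 1. Assignment was tested on simulated peaks.

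The members, partner list and markers were chosen with earlier results of these data known, so no test was run. All members with a peak in any list are named with their strongest peak or more. Partner genes with a shared peak and the protein-coding neighbours of members with a shared peak are also named, except for a gene that is not reported here. Alternatives were other distance limits, thresholds, windows, ranks, overlaps and each replicate list alone.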

Additional observations from a re-analysis of the deposited data

How the results depend on the processing

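The same 9 tetraspanin genes had peaks in the replicate 2 list, and all 9 were among the 13 of replicate 1. All 15 shared peaks overlapped peaks of both replicate lists, so finding these 9 genes in each list adds no separate support. No paired analysis was possible because the libraries form a single group and no test was run. Assigning a peak to every gene within 100 kb gave 14 members with a shared peak, 26 shared peaks, 11 partner genes, 14 members in replicate 2 and 14 in both replicates. The 5 members added were PRPH2, ROM1, TSPAN3, TSPAN4 and TSPAN10, since this setting counts a peak for several genes. A −log10 q of at least 5 left 5 members with 5 shared peaks, 3 members in replicate 1, 1 in replicate 2 and 0 in both. Of the 15 shared peaks, 9 remained with gene bodies only. Replicate 1 peaks that shared 50% of both widths with replicate 2 numbered 9, at 7 members. TSPAN8 dropped out under this setting, and so did TSPAN14, the gene with the family's largest shared fold. Without replicate 1 or without replicate 2, members numbered 9 to 13, their peaks 21 to 34, partner genes 7 to 10, and members with a peak within 3 kb of a gene end 3 to 4. That last count was 2 in the shared list, 1 with windows of 1 kb and 4 with 5 kb. The median fold percentile of the 15 peaks within the shared list was 81.3. It was 57.7 when ranked by −log10 p, 81.5 for the matched replicate 1 peaks and 75.5 for those of replicate 2. The cause of the drop to 57.7 was not tested. Depth is unknown, so a missing peak does not show that BRG1 was absent.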
